A study of Homo sapiens with 12 samples.

Results

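Keratins are the intermediate filament proteins of epithelial cells. The keratin genes described here are the protein-coding genes of the deposited count table whose symbol is KRT followed by a number and at most 1 letter, which leaves out the keratin-associated protein genes. The rule found 55 of 58735 genes. Of these, 29 encode type I and 26 encode type II keratins, and 27 lie on chromosome 12 (52168996 to 52952901) and 28 on chromosome 17 (40654665 to 41624842). The positions are those of the table, and all 55 have the same position in GENCODE release 29 on GRCh38. Transcripts were sequenced from Beas-2b, a line of immortalised epithelial cells from human bronchus, in 4 groups of 3 libraries. The groups were ANT1 knockout cells in bleomycin, ANT1 knockout cells in control medium, wild type cells in bleomycin and wild type cells in control medium. Bleomycin, which breaks DNA, was given at 10 mg/ml over 2 days to bring on senescence, per the labels. ANT1 is the mitochondrial adenine nucleotide translocase encoded by SLC25A4, and its gene was disrupted by CRISPR in cloned cells. The labels do not tie libraries to clones, and the effects of genotype and of clone cannot be told apart. The design text calls the 3 libraries of a group biological replicates, and the p-values measure the spread between those libraries within 1 cell line.

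A keratin filament is built from pairs of 1 type I and 1 type II chain, and it is tied to the cell surface at desmosomes. Single-layered epithelia mainly pair KRT8 with KRT18 and KRT7 with KRT19, the basal layer of stratified and airway epithelium pairs KRT5 with KRT14, and wounded epithelium induces KRT6, KRT16 and KRT17. The hair keratins, such as KRT34 and KRT81, are cysteine-rich chains best known from the hair shaft and nail.

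Most keratin genes lay near or below the counting floor, which is taken as 3 counts in a library (0.137 to 0.190 counts per megacount). More than 3 counts in at least 1 library were found for 26 of the 55, and in every library for 10, namely KRT7, KRT8, KRT10, KRT17, KRT18, KRT19, KRT34, KRT80, KRT81 and KRT86. The filter on low counts kept 14 members, 9 of type I and 5 of type II, among the 16702 genes tested. Of those 14, 8 exceeded the filter's cutoff of 0.544 counts per megacount in all 12 libraries (the 10 above without KRT34 and KRT86). KRT15, KRT23, KRT32 and KRT33B exceeded it in at most 1 of 6 control libraries and entered the test only through their bleomycin libraries. Among the 41 members under the filter, 4 (KRT26, KRT28, KRT77 and KRT222) had 0 counts in every library.

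The sequences below show how far reads of the hair keratins can be told apart. On chromosome 12, KRT81 (52285913 to 52291534, minus strand) lies within the span of KRT86 (52249300 to 52309163, plus strand). Their coding sequences were 89.6% identical, with a longest identical run of 605 bases. Among the 100-base stretches of KRT81 transcripts, 28.8% also occur in KRT86, and among those of KRT86, 23.5% occur in KRT81. Coding bases 1249 to 1308 are one of the stretches where the pair can be separated, with 14 differences, which are in capitals (GENCODE release 29, GRCh38, chromosome 12; the window crosses an intron in each gene and runs over 52286465 to 52286821 on the minus strand for KRT81 and 52308234 to 52308432 on the plus strand for KRT86).
KRT81: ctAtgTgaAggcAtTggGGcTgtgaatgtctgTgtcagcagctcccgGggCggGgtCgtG
KRT86: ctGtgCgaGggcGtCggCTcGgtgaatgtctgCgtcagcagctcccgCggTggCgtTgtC

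Promoters are shown for the tested keratins of chromosome 17 that have an entry in the RefSeq promoter table (GRCh38.p14). Every tested member there rose in bleomycin, but the filter had fixed that direction for KRT15, KRT23, KRT32 and KRT33B. A total of 34 of the 55 keratins had an entry, 5 of the 14 tested. The letters TATAAA, searched on both strands from 250 bases before to 50 after the start, were present in 21 of the 34 (61.8%), against 11.5% of all 35116 promoters in the table. Here and for the motifs below, a keratin counted if any of its entries held the letters (38 entries for the 34). The share of all promoters is per entry, so the units differ. The 80 bases before the start follow, on the minus strand, with TATAAA in capitals. They cover chr17:41382307-41382386 for KRT34, chr17:41369814-41369893 for KRT33B, chr17:41467387-41467466 for KRT32 and chr17:40822615-40822694 for KRT10.
KRT34: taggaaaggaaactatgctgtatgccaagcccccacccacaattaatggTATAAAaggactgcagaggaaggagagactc
KRT33B: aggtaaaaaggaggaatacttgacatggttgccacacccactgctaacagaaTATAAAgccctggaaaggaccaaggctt
KRT32: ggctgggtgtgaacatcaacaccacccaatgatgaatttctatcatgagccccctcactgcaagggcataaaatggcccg
KRT10: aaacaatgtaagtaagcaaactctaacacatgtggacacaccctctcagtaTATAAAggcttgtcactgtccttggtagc
TATAAA began 31 bases before the start in KRT34, 28 before it in KRT33B and 29 before it in KRT10, and these letters were not in the RefSeq entries of KRT32 and KRT8. The AP-1 letters TGANTCA were in 0 of the 34 keratin promoters and 7.71% of all promoters, and the AP-2 letters GCCNNNGGC in 5 (14.7%) and 23.2%. The NF-kB and p53 consensus motifs were each in 0 of the 34, against 0.191% and 0.0285% of all promoters.

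The libraries held 15.8 to 21.9 megacounts. SLC25A4 was at 0.838 to 1.43 FPKM (the deposited fragment counts scaled to gene length and to library size) in the 6 knockout libraries, against 3.29 to 5.64 FPKM in the 6 wild type libraries. One library differed from the rest: replicate 2 of the knockout controls had 0.364% of its counts on the mitochondrial chromosome, against 3.86% to 5.13% in the other 11. The bronchial label was set against marker genes. ITGB4, DSP and JUP, which belong to epithelial junctions and adhesion sites, were expressed, while the defining epithelial genes EPCAM and CDH1 averaged at most 0.596 and 0.394 FPKM in any group, and the airway basal genes KRT5 and TP63 at most 0.0781 and 0.0798 FPKM. The fibroblast genes COL1A1 and THY1 were expressed, averaging 55.8 to 160.2 and 30.7 to 54.7 FPKM over the groups. The highest COL1A1 mean was in knockout control, where the sum of the fibroblast list ran from 119.8 to 381.8 FPKM between libraries. LUM was at 0 in every library, and DCN and COL3A1 averaged at most 0.00693 and 0.0236 FPKM. In bulk RNA, fewer cells of a type and less RNA per cell cannot be told apart.

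Bleomycin changed the make-up of the keratin transcripts in both genotypes. The hair keratins KRT81, KRT86, KRT34, KRT33B and KRT32 rose, as did KRT7, KRT19, KRT17, KRT15, KRT10 and KRT23, while KRT80, KRT18 and KRT8 fell. Of the 14 tested members, 11 rose and 3 fell in knockout cells and the same 11 rose and the same 3 fell in wild type cells, where a call is an adjusted p under 0.05 in edgeR's quasi-likelihood test with Benjamini-Hochberg adjustment over all genes tested. Over all 16702 genes tested, 43.2% were called in knockout cells (22.5% higher, 20.7% lower) and 43.5% in wild type cells (23.9% higher, 19.6% lower). Members that entered the test only through their bleomycin libraries had to differ. The 8 members past the filter's cutoff in every library were all called too, 5 higher and 3 lower in each genotype. Without knockout control replicate 2 all 14 kept their calls in knockout cells. For all 14 members the bleomycin and control FPKM ranges did not overlap in either genotype, which was also so for 51.2% of all genes tested in knockout and 61.1% in wild type cells. The median log2 fold change of the 8 members past the cutoff in every library was 0.59 in knockout and 0.65 in wild type cells, against 0.00 in knockout and 0.02 in wild type cells over all genes tested. By position, the 8 tested members on chromosome 17 all rose, but for KRT15, KRT23, KRT32 and KRT33B the filter had fixed that direction. On chromosome 12 KRT7, KRT81 and KRT86 rose and KRT80, KRT8 and KRT18 fell. KRT7, KRT81 and KRT86 lie at the same end of that cluster as KRT80, and KRT8 and KRT18 lie at the other end.

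**Figure D1:**
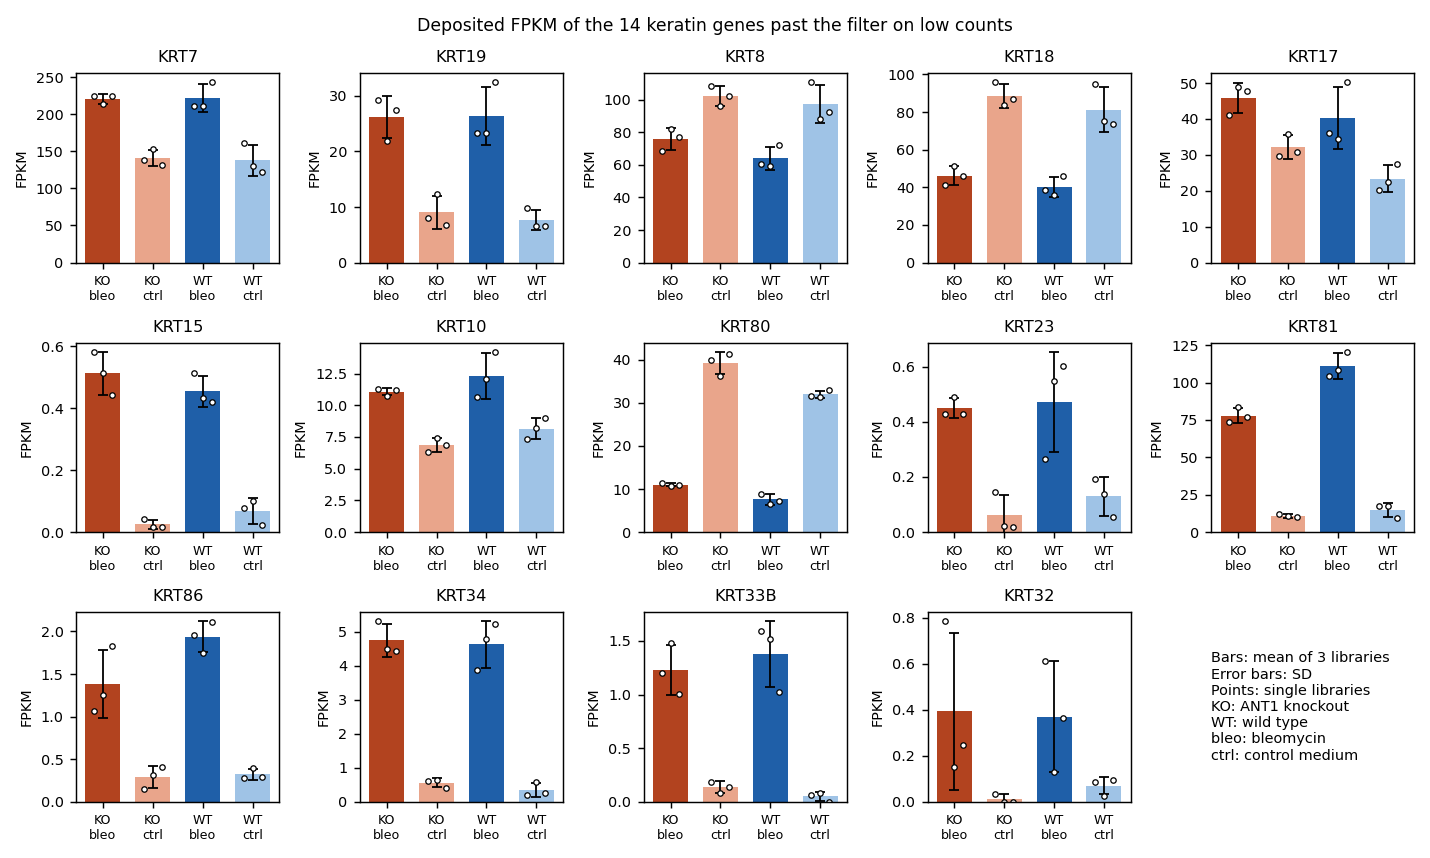
Deposited FPKM of the 14 keratin genes past the filter in the 4 groups (linear axes from 0, 1 panel per gene; bars are means of 3 libraries, error bars SD, points single libraries). In both genotypes the bleomycin points lie above the control points in 11 panels and below them in the panels of KRT8, KRT18 and KRT80.

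The simple-epithelium keratins divided by gene. KRT7 (ENSG00000135480), a type II chain of glandular and airway epithelium, was the most abundant keratin per length in every library. It was at 223.9, 213.1 and 223.8 FPKM in knockout bleomycin libraries, against 138.1, 153.1 and 132.1 FPKM in knockout control libraries. In wild type cells it was at 211.3, 210.8 and 243.0 FPKM in bleomycin, against 161.8, 130.03 and 121.6 FPKM in control medium. Every bleomycin library was higher than every control library of its genotype, and the rise was 1.57-fold in knockout (log2 fold change 0.65, SE 0.11, edgeR adjusted p = 0.000477) and 1.62-fold in wild type cells (0.69, SE 0.11, adjusted p = 0.000253). KRT19 (ENSG00000171345), the smallest type I keratin, was at 29.3, 21.9 and 27.4 FPKM in knockout bleomycin libraries, against 8.01, 12.4 and 6.82 FPKM in knockout control. Wild type cells had KRT19 at 23.4, 23.3 and 32.5 FPKM in bleomycin, against 9.76, 6.58 and 6.64 FPKM in control medium. Again no bleomycin library reached down to the controls, with a rise of 2.91-fold in knockout (1.54, SE 0.23, edgeR adjusted p = 0.000164) and 3.46-fold in wild type cells (1.79, SE 0.23, adjusted p = 4.13e-05).

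KRT8 and KRT18, the first keratin pair of the embryo and the usual pair of simple epithelium, both fell, KRT18 by more. KRT18 (ENSG00000111057) was at 41.2, 51.1 and 46.2 FPKM in knockout bleomycin libraries, against 95.8, 83.5 and 86.8 FPKM in knockout control, and at 38.5, 35.9 and 45.9 FPKM in wild type bleomycin, against 94.9, 75.5 and 73.6 FPKM in wild type control. The highest bleomycin library was thus well below the lowest control in each genotype, and KRT18 was 1.91-fold lower in knockout (log2 fold change -0.93, SE 0.12, edgeR adjusted p = 5.48e-05) and 2.01-fold lower in wild type cells (-1.01, SE 0.12, adjusted p = 2.26e-05). KRT8 (ENSG00000170421) was at 68.5, 82.0 and 77.1 FPKM in knockout bleomycin libraries, against 108.2, 96.2 and 102.0 FPKM in knockout control, and at 60.2, 59.5 and 72.0 FPKM in wild type bleomycin, against 110.7, 88.4 and 92.7 FPKM in wild type control. The KRT8 groups did not overlap either, and the fall was 1.34-fold in knockout (-0.42, SE 0.11, edgeR adjusted p = 0.00886) and 1.51-fold in wild type cells (-0.60, SE 0.11, adjusted p = 0.000799). The ratio of KRT8 to KRT18 FPKM was 1.65 ± 0.035 in knockout bleomycin and 1.15 ± 0.023 in knockout controls, and 1.60 ± 0.052 in wild type bleomycin and 1.20 ± 0.052 in wild type control (SD, n = 3 each), without overlap.

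Limits of the counting touch this pair. KRT8 and KRT18 share 525 exon bases on opposite strands (7.63% of the exon bases of KRT8 and 16.3% of those of KRT18), and the sources used here do not state whether counting used strand. The 50 KRT8 pseudogenes in the table together held 0.915% to 3.30% of the KRT8 count, and the 67 KRT18 pseudogenes 0.317% to 2.02% of the KRT18 count. KRT8P33, which shares 0.453% of the 100-base stretches of KRT8, rose while KRT8 fell (log2 fold change 1.82, SE 0.29, edgeR adjusted p = 0.000277 in knockout; 2.06, SE 0.28, adjusted p = 5.54e-05 in wild type). The epithelial marker list, of whose 12 genes 11 passed the filter, summed to 72.8 to 79.95 FPKM in knockout bleomycin libraries, against 229.8 to 237.7 FPKM in knockout control, and to 65.3 to 73.5 FPKM in wild type bleomycin, against 169.6 to 262.6 FPKM in wild type control, and GRHL2 was at 0 in all control libraries. CDH3 of the same list went the other way, with means of 5.81 FPKM in knockout bleomycin and 0.972 FPKM in knockout control, and 5.50 FPKM in wild type bleomycin and 1.13 FPKM in wild type control. The list's sum moved in the same direction as KRT8 and KRT18, and its part in their fall was not tested.

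KRT80 (ENSG00000167767), a type II keratin of differentiating epithelium that is placed close to desmosomes, fell the most of the tested members. It was at 11.5, 10.8 and 10.8 FPKM in knockout bleomycin libraries, against 40.0, 36.3 and 41.4 FPKM in knockout control. Wild type cells had 8.92, 6.57 and 7.30 FPKM in bleomycin, against 31.6, 31.3 and 33.0 FPKM in control medium. All 6 bleomycin libraries were far below all 6 controls, a fall of 3.53-fold in knockout (log2 fold change -1.82, SE 0.11, edgeR adjusted p = 3.14e-08) and of 4.18-fold in wild type cells (-2.06, SE 0.11, adjusted p = 8.63e-09).

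The 5 tested hair keratins, of 17 in all, rose in both genotypes. For KRT33B and KRT32, which entered the test only through their bleomycin libraries, the filter had fixed that direction. KRT81 (ENSG00000205426), the type II chain of the hair cortex, was at 73.4, 83.4 and 76.9 FPKM in knockout bleomycin libraries, against 12.3, 10.8 and 9.87 FPKM in knockout control. In wild type cells KRT81 was at 104.5, 108.2 and 120.6 FPKM in bleomycin, against 17.6, 17.4 and 9.67 FPKM in control medium. The lowest bleomycin library was several times the highest control, and KRT81 was 7.15-fold higher in knockout (log2 fold change 2.84, SE 0.19, edgeR adjusted p = 9.68e-08) and 7.49-fold higher in wild type cells (2.91, SE 0.19, adjusted p = 5.85e-08). After KRT7, KRT81 was the keratin with the highest FPKM in 5 of 6 bleomycin libraries, and in knockout bleomycin replicate 3 it lay just under KRT8. In the control libraries it ranked 6 or 7 among the keratins. These ranks rest on counts divided by gene length, which is 1929 bases for KRT81 and 6881 bases for KRT8. In summed counts KRT8 stayed above KRT81, with 28095 against 8071 in knockout bleomycin and 24684 against 12016 in wild type bleomycin. KRT86 (ENSG00000170442) is the type II gene whose span holds KRT81. It was at 1.07, 1.26 and 1.83 FPKM in knockout bleomycin, against 0.151, 0.311 and 0.409 FPKM in knockout control. In wild type cells it was at 1.96, 1.75 and 2.11 FPKM in bleomycin, against 0.276, 0.395 and 0.293 FPKM in control medium. KRT86 rose 4.73-fold in knockout (2.24, SE 0.32, edgeR adjusted p = 9.86e-05) and 5.99-fold in wild type cells (2.58, SE 0.30, adjusted p = 1.47e-05). Because the pair shares long identical stretches and KRT81 FPKM was on average 46.8 to 59.1 times that of KRT86 in the 4 groups, the KRT86 values are uncertain: how many of its reads came from KRT81 was not tested.

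KRT34 (ENSG00000131737), a type I hair keratin, was at 5.30, 4.49 and 4.44 FPKM in knockout bleomycin libraries, against 0.619, 0.637 and 0.404 FPKM in knockout control. In wild type cells KRT34 was at 3.88, 4.78 and 5.22 FPKM in bleomycin, against 0.203, 0.592 and 0.246 FPKM in control medium. The groups were far apart, with a rise of 8.63-fold in knockout (log2 fold change 3.11, SE 0.29, edgeR adjusted p = 2.63e-06) and 12.95-fold in wild type cells (3.70, SE 0.30, adjusted p = 5.59e-07). Without wild type control replicate 2, where KRT34 was highest among the wild type controls, that rise was 20.4-fold. KRT33B (ENSG00000131738), another type I hair keratin, had 31, 45 and 30 counts in knockout bleomycin libraries, against 5, 2 and 4 counts in knockout control, and 50, 43 and 31 counts in wild type bleomycin, against 2, 3 and 0 counts in wild type control. Its controls were thus near or under the floor, and it rose 9.01-fold in knockout (3.17, SE 0.44, edgeR adjusted p = 7.96e-05) and 25.02-fold in wild type cells (4.65, SE 0.49, adjusted p = 6.20e-06), or 37.7-fold without wild type control replicate 2. KRT33B shares 4.11% of its 100-base stretches with KRT33A. KRT32 (ENSG00000108759), a type I keratin of the hair cuticle, had 22, 5 and 8 counts in knockout bleomycin, against 1, 0 and 0 counts in knockout control, and 21, 4 and 12 counts in wild type bleomycin, against 3, 1 and 3 counts in wild type control. The ratio of summed KRT32 counts, scaled to library totals, was 34.2 in knockout cells (95% exact counting interval 5.75 to 1389) and 5.89 in wild type cells (2.59 to 15.7), and replicate 1 held most of the bleomycin counts in both. The fitted knockout fold of KRT32, 25.9, was 13.5 without knockout bleomycin replicate 1, and no fold is given without knockout control replicate 1, since the other controls held 0 counts. KRT32 passed edgeR's test in knockout (adjusted p = 0.00545) and wild type cells (adjusted p = 0.0281), but in wild type cells not without bleomycin replicate 1 or 3 or without any 1 control library (adjusted p = 0.0552 to 0.136).

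Among the remaining members, KRT17 (ENSG00000128422), which wounded and stressed epithelium induces, was at 41.0, 48.9 and 47.7 FPKM in knockout bleomycin libraries, against 29.6, 35.9 and 30.9 FPKM in knockout control. Wild type cells had KRT17 at 36.1, 34.4 and 50.2 FPKM in bleomycin, against 20.1, 22.4 and 27.5 FPKM in control medium. The rise was small beside that of the hair keratins, 1.44-fold in knockout (log2 fold change 0.52, SE 0.15, edgeR adjusted p = 0.0135) and 1.74-fold in wild type cells (0.80, SE 0.15, adjusted p = 0.000891). The knockout call of KRT17 was lost without bleomycin replicate 2 (edgeR adjusted p = 0.0529). KRT10 (ENSG00000186395), the suprabasal chain of skin, averaged 11.1 ± 0.28 FPKM in knockout bleomycin and 6.87 ± 0.54 FPKM in knockout control, and 12.3 ± 1.8 FPKM in wild type bleomycin and 8.17 ± 0.85 FPKM in wild type control (SD, n = 3 each). KRT10 rose 1.62-fold in knockout (0.70, SE 0.13, edgeR adjusted p = 0.000643) and 1.52-fold in wild type cells (0.60, SE 0.12, adjusted p = 0.00153).

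KRT15 (ENSG00000171346), a keratin of basal cells, had 66, 69 and 58 counts in knockout bleomycin libraries, against 5, 2 and 2 counts in knockout control. In wild type cells KRT15 had 71, 54 and 56 counts in bleomycin, against 11, 16 and 3 counts in control medium. It rose 20.0-fold in knockout (log2 fold change 4.32, SE 0.44, edgeR adjusted p = 5.10e-06) and 6.52-fold in wild type cells (2.70, SE 0.36, adjusted p = 4.73e-05). KRT15 is 1 of 7 genes of the basal airway list, whose summed FPKM was 42.1 to 46.2 in knockout bleomycin, against 23.2 to 29.8 in knockout control, and 37.5 to 40.0 in wild type bleomycin, against 18.5 to 22.5 in wild type control. That sum was mostly ITGA6, an integrin, which averaged 32.5 FPKM in knockout bleomycin and 19.1 FPKM in knockout control, and 28.0 FPKM in wild type bleomycin and 15.4 FPKM in wild type control. NGFR, a neurotrophin receptor, averaged 5.77 FPKM in knockout bleomycin and 0.440 FPKM in knockout control, and 5.20 FPKM in wild type bleomycin and 0.340 FPKM in wild type control. DLK2 averaged 5.90 FPKM in knockout bleomycin and 6.06 FPKM in knockout control, and 5.20 FPKM in wild type bleomycin and 4.42 FPKM in wild type control, and KRT5, KRT14 and TP63 stayed near 0. The part of basal markers in the KRT15 values was not tested. KRT23 (ENSG00000108244), a type I keratin that is inducible in several epithelial cell lines, had 20, 27 and 23 counts in knockout bleomycin, against 7, 1 and 1 counts in knockout control, and 15, 28 and 33 counts in wild type bleomycin, against 11, 9 and 3 counts in wild type control. Its fold was 7.20 in knockout (2.85, SE 0.61, edgeR adjusted p = 0.00216) and 3.57 in wild type cells (1.84, SE 0.52, adjusted p = 0.011). Single control libraries decided these values, since the knockout fold was 20.4 without knockout control replicate 1, and KRT23 missed the threshold in wild type cells without control replicate 3 (edgeR adjusted p = 0.0505).

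**Figure D2:**
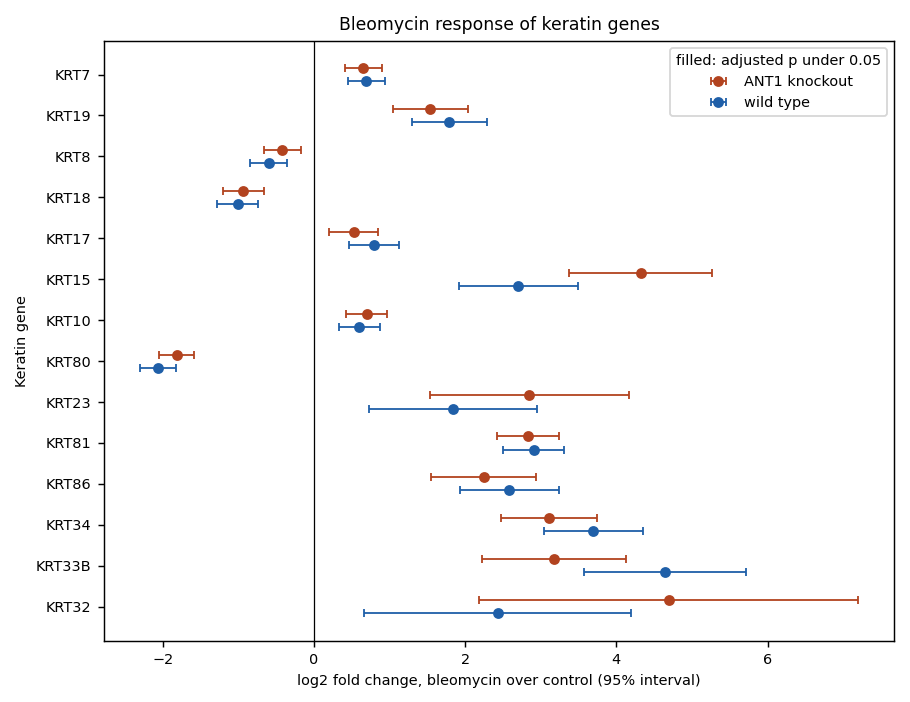
Log2 fold change of bleomycin over control with its 95% interval for each of the 14 keratin genes in ANT1 knockout cells (red, upper of each pair) and wild type cells (blue), from edgeR. All points are filled, which marks an adjusted p under 0.05, and KRT8, KRT18 and KRT80 alone lie left of 0; the widest intervals belong to KRT32 and KRT23, the members with the fewest counts.

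The keratin pool as a whole grew less than its parts moved. Summed over the 55 members, keratin FPKM was 524.4 ± 12 in knockout bleomycin and 431.6 ± 12 in knockout control libraries, whereas wild type cells had 534.1 ± 54 in bleomycin and 403.7 ± 44 in control medium (SD, n = 3 each). The type II chains carried that gain. Their sum was 387.1 ± 6.9 FPKM in knockout bleomycin and 293.8 ± 7.0 FPKM in knockout control, and 407.2 ± 33 FPKM in wild type bleomycin and 282.3 ± 35 FPKM in wild type control. The type I sum was 137.3 ± 5.1 FPKM in knockout bleomycin and 137.8 ± 4.9 FPKM in knockout control, and 126.8 ± 21 FPKM in wild type bleomycin and 121.4 ± 10 FPKM in wild type control. The ratio of type II to type I was therefore higher in bleomycin in every library, 2.82 ± 0.055 against 2.13 ± 0.026 in knockout and 3.24 ± 0.25 against 2.32 ± 0.12 in wild type cells. These are levels per gene length, taken by the authors as the union of all exons, so a gene with long rare exons such as KRT8 (6881 bases) or KRT15 (7069 bases) has a low FPKM for its count.

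KRT81 made up 14.8% ± 0.72 of keratin FPKM in knockout bleomycin and 2.54% ± 0.23 in knockout controls, and 20.8% ± 0.68 in wild type bleomycin and 3.67% ± 1.0 in wild type control. KRT8 and KRT18 went the other way. KRT8 made up 14.5% ± 1.0 in knockout bleomycin and 23.7% ± 1.4 in knockout control, and 11.96% ± 0.10 in wild type bleomycin and 24.1% ± 0.82 in wild type control. KRT18 made up 8.79% ± 0.77 in knockout bleomycin and 20.6% ± 1.4 in knockout control, and 7.50% ± 0.29 in wild type bleomycin and 20.1% ± 0.66 in wild type control. KRT80 made up 2.11% ± 0.12 in knockout bleomycin and 9.10% ± 0.80 in knockout control, and 1.43% ± 0.29 in wild type bleomycin and 7.98% ± 0.94 in wild type control (SD, n = 3 for each share). The opposite moves of the type II chains KRT81 and KRT80 put their FPKM ratio at 7.07 ± 0.66 in knockout bleomycin and 0.281 ± 0.037 in knockout control, and at 14.9 ± 2.8 in wild type bleomycin and 0.469 ± 0.15 in wild type control.

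**Figure D3:**
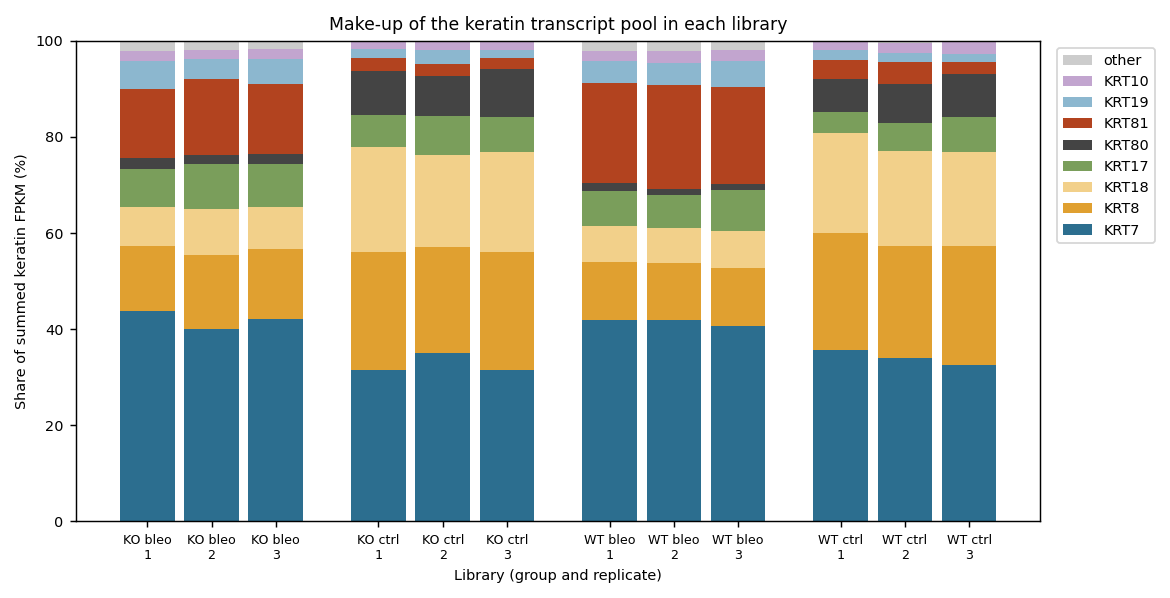
Share of each keratin in the summed keratin FPKM of each of the 12 libraries, in percent; each stacked bar is 1 library and "other" pools the remaining 47 members. In all 6 bleomycin bars the KRT81 band is wide and the bands of KRT8, KRT18 and KRT80 are narrower than in the 6 control bars.

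The 41 keratins under the filter added few counts, and more of them in bleomycin. They summed to 157 counts in knockout bleomycin and 30 in knockout control, and to 198 in wild type bleomycin and 42 in wild type control, a ratio after scaling to library totals of 5.11 and 5.26. Of those with any count, 82.8% were higher in bleomycin in knockout and 90.6% in wild type cells. The same held for most low genes, since of all 6484 protein-coding genes under the filter 77.5% and 82.7% of those with any count were higher, with ratios of 2.03 and 2.43. A total of 7 of the 41 reached 10 counts in some group. KRT84, a type II hair keratin, had 24 summed counts in knockout bleomycin and 0 in knockout control, and 28 in wild type bleomycin and 0 in wild type control, with an exact 95% lower bound of the ratio of 5.88 in knockout and 7.92 in wild type cells. KRT83, a hair keratin next to KRT81 and KRT86, had 13 and 0 counts in knockout bleomycin and control, and 22 and 1 in wild type bleomycin and control (wild type ratio 24.5, interval 3.96 to 1012). Replicate 2 held 15 of those 22 counts. KRT36 of hair and nail had 2 and 0 counts in knockout bleomycin and control, and 12 and 1 in wild type bleomycin and control (wild type ratio 13.4, interval 1.98 to 572).

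KRT38, also a hair keratin, went against them, with 4 counts in knockout bleomycin and 10 in knockout control, and 5 in wild type bleomycin and 19 in wild type control (ratio 0.391, interval 0.0895 to 1.36, in knockout and 0.293, interval 0.0856 to 0.812, in wild type). KRT16, the injury-induced partner of KRT6, had 29 counts in knockout bleomycin and 7 in knockout control, and 20 in wild type bleomycin and 7 in wild type control (ratio 4.05, interval 1.74 to 10.9, and 3.19, interval 1.29 to 8.92). KRT5 of basal cells had 8 counts in knockout bleomycin and 0 in knockout control, and 19 in wild type bleomycin and 3 in wild type control (wild type ratio 7.06, interval 2.08 to 37.3). KRT71 of the inner root sheath had 2 and 0 counts in knockout bleomycin and control, and 10 and 0 in wild type bleomycin and control (lower bound of the wild type ratio 2.50). The other 34 had at most 9 counts in any group. Intervals here are exact 95% intervals for counting error and do not cover the spread between libraries.

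ANT1 knockout against wild type asks whether keratin genes differ with loss of the translocase. In control medium 0 of the 14 tested members passed edgeR's test, where 0.168% of all genes did (0.108% higher, 0.0599% lower), and in bleomycin 0 passed, where 0.0479% of all genes did (0.00599% higher, 0.0419% lower). At an unadjusted p under 0.05 there were 4 members in control medium (KRT15, KRT17, KRT80 and KRT81) and 3 in bleomycin (KRT8, KRT80 and KRT81). Of all 16702 genes tested, 1661 were under it in control medium and 1103 in bleomycin. DESeq2 called 0 members in control medium (209 genes in all) and 1, KRT80, in bleomycin (88 genes in all). In bleomycin, the KRT80 values given above were higher in every knockout library than in every wild type library (log2 fold change 0.54, SE 0.11, 95% interval 0.31 to 0.77, edgeR adjusted p = 0.163). The FPKM ranges of the genotypes did not overlap in bleomycin for 18.4% of all genes tested. KRT81 was lower in every knockout bleomycin library than in every wild type one (-0.51, SE 0.17, interval -0.89 to -0.13, edgeR adjusted p = 0.537). The KRT80 difference passed with DESeq2 (adjusted p = 0.00299), with no filter (edgeR adjusted p = 0.0106), with only the groups compared in the fit (0.00679) and without knockout control replicate 2 (0.00211), and the KRT81 difference with no filter (0.0106) and with only the groups compared (0.000772). The spread of all 4 groups is pooled in the fit, including the library that stood apart.

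In control medium KRT80 (log2 fold change 0.30, SE 0.10, interval 0.07 to 0.52, edgeR adjusted p = 0.406) and KRT17 (0.46, SE 0.15, interval 0.13 to 0.79, adjusted p = 0.361) were higher in every knockout library than in every wild type library, where the ranges did not overlap for 12.2% of all genes tested. KRT81 overlapped between genotypes in control medium (-0.44, SE 0.18, interval -0.84 to -0.05, adjusted p = 0.478). With no filter, KRT17 (edgeR adjusted p = 0.0365) and KRT81 (0.0281) were called there. For the most abundant keratin, KRT7, the interval of the knockout minus wild type difference was -0.25 to 0.24 in bleomycin and -0.21 to 0.28 in control medium on the log2 scale. For KRT19 it was -0.48 to 0.47 in bleomycin and -0.26 to 0.75 in control medium.

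**Figure D4:**
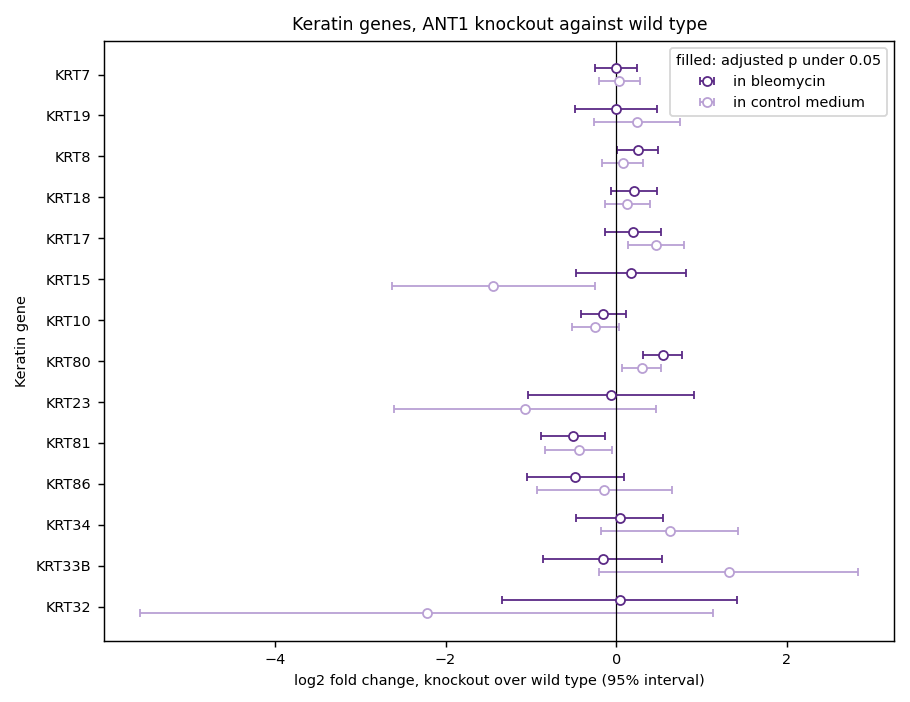
Log2 fold change of ANT1 knockout over wild type with its 95% interval for the 14 keratin genes in bleomycin (dark, upper of each pair) and in control medium (light), from edgeR. All points are open, which marks an adjusted p of 0.05 or more; the KRT80 points lie right of 0 and the KRT81 points left of 0 in both media.

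The difference between the genotypes' bleomycin responses, the interaction, was tested directly. It passed for 0 of the 14 keratins and for 0% of all genes tested with edgeR, with 1 keratin (KRT15) and 770 genes at an unadjusted p under 0.05, and DESeq2 called 0 keratins. The interaction interval of KRT81 ran from -0.61 to 0.48 on the log2 scale, that of KRT80 from -0.08 to 0.57, that of KRT7 from -0.39 to 0.30 and that of KRT18 from -0.30 to 0.45. For members with few control counts the intervals were wide. That of KRT33B ran from -3.14 to 0.20 (edgeR adjusted p = 0.899), and that of KRT15, from 0.26 to 2.97, lay above 0 but did not pass after adjustment over all genes (unadjusted p = 0.0229, adjusted p = 0.899).

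Transcripts of the proteins that tie keratins to desmosomes or modify them moved in both directions. Of 22 listed partner and cytolinker genes, all tested, 4 rose and 7 fell in knockout cells and 5 rose and 8 fell in wild type cells (median log2 fold change -0.15 in knockout and -0.23 in wild type cells). Over all genes tested 43.2% were called in knockout and 43.5% in wild type cells, and the medians were 0.00 and 0.02. PKP2, a plakophilin of desmosomes, averaged 1.84 ± 0.31 FPKM in knockout bleomycin and 5.69 ± 0.43 FPKM in knockout control, and 1.43 ± 0.16 FPKM in wild type bleomycin and 5.19 ± 0.31 FPKM in wild type control. PPL, periplakin, averaged 1.79 ± 0.17 FPKM in knockout bleomycin and 6.51 ± 0.072 FPKM in knockout control, and 2.05 ± 0.35 FPKM in wild type bleomycin and 5.96 ± 1.3 FPKM in wild type control (SD, n = 3 each). PKP2 and PPL fell in both genotypes. SFN, the keratin-binding protein 14-3-3 sigma, rose 2.40-fold in knockout (log2 fold change 1.27, SE 0.11, edgeR adjusted p = 8.25e-07) and 2.66-fold in wild type cells (1.41, SE 0.11, adjusted p = 2.37e-07). PKP1, the plakophilin of stratified epithelium, rose 2.63-fold in knockout and 2.42-fold in wild type cells. FAM83H, which recruits casein kinase 1 to keratin filaments, rose 2.22-fold in knockout and 2.27-fold in wild type cells, and CSNK1A1, which encodes that kinase, 1.43-fold in knockout and 1.41-fold in wild type cells. The cytolinker EPPK1, epiplakin, rose 2.89-fold in wild type cells and had a fold of 1.72 in knockout cells (edgeR adjusted p = 0.123).

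Of 18 other intermediate filament genes, 14 were tested, and 4 rose and 3 fell in knockout cells while 8 rose and 2 fell in wild type cells (median log2 fold change 0.16 in knockout and 0.43 in wild type cells), beside the same shares of 43.2% and 43.5% over all genes. Without knockout control replicate 2, 11 members passed in knockout cells instead of 7. Transcripts of the B-type lamins, which line the nucleus, fell: LMNB1 by 3.13-fold in knockout and 3.15-fold in wild type cells, and LMNB2 by 2.92-fold in knockout and 2.97-fold in wild type cells. BFSP1, a filament protein of the eye lens, rose 3.67-fold in knockout (1.87, SE 0.26, edgeR adjusted p = 8.29e-05) and 8.08-fold in wild type cells (3.01, SE 0.28, adjusted p = 1.56e-06). INA, a neuronal filament protein, rose 2.45-fold in knockout and 2.90-fold in wild type cells. NES, nestin of progenitor cells, was at 0.505, 0.398 and 0.515 FPKM in knockout bleomycin libraries, against 0.715, 1.75 and 0.705 FPKM in knockout control, and fell there (log2 fold change -1.15, SE 0.38, edgeR adjusted p = 0.0263), with its highest value in the control library that differed from the rest. NES did not pass in wild type cells (-0.64, SE 0.40, adjusted p = 0.212).

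Of 40 transcription factors listed as regulators of keratin genes or of epithelial state, 34 were tested, and 16 rose and 6 fell in knockout cells and 16 rose and 8 fell in wild type cells (median log2 fold change 0.28 in knockout and 0.38 in wild type cells). The shares over all genes were 22.5% higher and 20.7% lower in knockout and 23.9% higher and 19.6% lower in wild type cells. GRHL3, a factor of the epidermal barrier, averaged 3.36 ± 0.38 FPKM in knockout bleomycin and 0.0912 ± 0.044 FPKM in knockout control, and 4.41 ± 0.29 FPKM in wild type bleomycin and 0.0332 ± 0.018 FPKM in wild type control (SD, n = 3 each), a rise in both genotypes (edgeR adjusted p = 7.48e-09 and 1.06e-09). KLF4, a factor of epithelial differentiation, rose 3.25-fold in knockout and 5.25-fold in wild type cells, and SNAI2, a repressor of epithelial genes, 7.86-fold in knockout and 8.46-fold in wild type cells. ELF3, an epithelial ETS factor, averaged 0.127 ± 0.015 FPKM in knockout bleomycin and 4.12 ± 0.43 FPKM in knockout control, and 0.153 ± 0.037 FPKM in wild type bleomycin and 5.12 ± 0.31 FPKM in wild type control, and fell in both. In knockout cells MYC, a growth factor-induced regulator, fell 1.64-fold, TWIST1 1.96-fold, GLI2 1.58-fold and FOSL2 1.21-fold. The falls in wild type cells were 2.02-fold for MYC, 2.09-fold for TWIST1, 2.23-fold for GLI2 and 1.25-fold for FOSL2. TFAP2A fell 1.42-fold and SP1 1.40-fold in wild type cells, and neither passed in knockout cells (edgeR adjusted p = 0.634 and 0.0764). Between the genotypes 0 members of the 3 lists passed in either medium, and 0 passed for the interaction.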

How the data were processed

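The authors deposited raw counts and FPKM values per gene for 12 libraries of poly(A)-selected RNA. The submitters' processing notes name the aligner HISAT2 2.0.5 and the read counter featureCounts 1.5.0-p3. No source used here states the genome build or the strand setting. The deposited FPKM values equalled the count over gene length and a library factor within 0.1%, the factor being 0.963 to 1.05 times the library total.

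Counts were fitted with edgeR 4.0.16 (R 4.3.3): filterByExpr (minimum count 10), TMM factors, 1 robust quasi-likelihood fit of all 12 libraries with 4 group means, 5 contrasts, Benjamini-Hochberg adjustment over 16702 genes, threshold 0.05. SE is the absolute log2 fold change over the square root of F. The script was tested on simulated data with 200 changed genes. Alternatives used DESeq2 1.42.0, limma 3.58.1 on log2(FPKM + 1) and log2(FPKM + 0.1), other scalings and filters, and each library left out. Same-numbered replicates did not deviate together, so no block was used. Shared 100-base stretches were counted in GENCODE transcripts. Protein sequences were not analysed here.

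All tested keratins are named, as are those under the filter with at least 10 counts in a group. For the other lists up to 4 members with the smallest adjusted p in wild type cells are named, and every member against its list's majority, except that 1 gene the rule takes is not reported here. The members and lists were chosen with earlier results of these data known. Intervals and floors for summed counts cover counting error only.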

Additional observations from a re-analysis of the deposited data

How the results depend on the processing

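The bleomycin changes of the 14 keratins kept their direction in all 558 recomputed values. Of these 550 kept their side of the threshold, and 8 did not: 6 of KRT32 in wild type cells and those of KRT23 and KRT17 given above. Between genotypes and for the interaction, 810 of 818 values kept their call, and 8, all of KRT17, KRT80 or KRT81, passed only under an alternative. Keratins called between knockout and wild type numbered 0 in each medium. With no filter they were 2 in control medium (321 genes in all, against 28 in the main test) and 2 in bleomycin (81 genes, against 8). In bleomycin DESeq2 called 1 (88 genes) and a fit of only the groups compared 2 (312 genes), and leaving out single libraries gave 0 to 1 (294 genes without knockout control replicate 2). In control medium DESeq2 called 209 genes in all and the fit of only the groups compared 0. For the interaction DESeq2 called 4 genes, none of them a keratin. Leaving out single libraries gave 6 to 11 called other filament genes for bleomycin in knockout cells, 0 to 2 called partner genes between genotypes in each medium and 0 to 1 filament gene in bleomycin. The keratin sum in knockout cells, 1.22 times higher in bleomycin by FPKM, was 1.14 times higher by TPM computed from the counts. TPM divides by the FPKM total of a library, of which keratins made up 0.194% ± 0.0064 in knockout bleomycin and 0.170% ± 0.011 in knockout control (SD, n = 3 each). That share was 0.183% in knockout control replicate 2 and 0.164% in replicates 1 and 3. Why the totals differ between libraries was not tested. A pseudocount of 1 FPKM shrank the folds of the low members KRT15, KRT23, KRT32, KRT33B, KRT34 and KRT86 by over 1.5 times.

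With the replicate number as a block, 14 keratins were called for bleomycin in each genotype and 0 between genotypes, as without it, though the genes called in all fell to 11 in control medium and 4 in bleomycin. Of 18 same-numbered pairs, 3 correlated above 0.1 (r from -0.28 to 0.19) and 4 correlated best with their own number, so the samples share only a number. Depth limits the 41 keratins under the filter and the controls of KRT15, KRT23, KRT32 and KRT33B, where folds rest on a few counts.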
